A study of Mus musculus with 11 samples.

Results

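The genes described here are the 6 phosphatidylinositol transfer proteins (Pitpnc1, Pitpna, Pitpnb, Pitpnm1, Pitpnm2 and Pitpnm3) and the 4 beta-type phospholipases C (Plcb1, Plcb2, Plcb3 and Plcb4). They were chosen by symbol, and all 10 were found among the 24421 genes counted in every library. The libraries were made from J-RGCs, a type of mouse retinal ganglion cell, of Tbr1 KO and WT mice at postnatal day 4 to 5, on a mixed C57BL/6 and CD1 background. J-RGCs carried a green fluorescent label from a transgenic line specific to the type in both genotypes, and were sorted into pools of 100 cells, each of which gave 1 RNA sequencing library. The 6 Tbr1 KO libraries came from 4 animals: libraries 1 and 2 from animal a, 3 and 4 from animal b, 5 from animal c, and 6 from animal d. The 5 WT libraries also came from 4 animals: library 1 from animal a, 2 and 3 from animal b, 4 from animal c, and 5 from animal d. Libraries of 1 animal were summed, so that the animal was the replicate (n = 4 per genotype). The labels name neither the Tbr1 allele nor the promoter of the transgene.

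Phosphatidylinositol is made in the endoplasmic reticulum and is phosphorylated at the plasma membrane to phosphatidylinositol bisphosphate. Receptors coupled to Gq activate beta-type phospholipases C, which split that lipid into inositol trisphosphate, a trigger of calcium release, and diacylglycerol. Transfer proteins carry phosphatidylinositol back to the plasma membrane and, in some classes, phosphatidic acid the other way. In Drosophila photoreceptors, the phospholipase C norpA and the transfer protein rdgB are both needed for the light response, and in mouse ganglion cells that contain melanopsin, Plcb4 takes part in a comparable cascade.

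Reads counted over genes ranged from 8609845 to 34718693 per library, and 13957 genes passed the filter on low counts. Levels are given as CPM, the counts of a gene scaled to a common library total with TMM factors. Tbr1 was still counted in Tbr1 KO animals, at 94.2 to 145 CPM, against 155 to 193 CPM in WT animals. Since the labels do not say which exons were removed, counts over the whole gene are no check of the genotype labels. The ganglion cell markers Rbpms, Thy1, Sncg and Slc17a6 were present in every animal. The 17 ganglion cell markers summed to 20850 to 22720 CPM in Tbr1 KO animals and 20037 to 23483 CPM in WT animals. Nefl was the highest of them, and the sum does not show that each marker was equal. Thy1 was lower in every Tbr1 KO animal, at 260 to 359 CPM against 382 to 458 CPM in WT animals. Pou4f2 was also lower, at 124 to 200 CPM in Tbr1 KO and 264 to 295 CPM in WT animals. Of the 17 markers, 8 had positive log2 fold changes of Tbr1 KO over WT, and 0 were past the threshold given below. The 25 photoreceptor markers summed to 77.4 to 1663 CPM in Tbr1 KO animals, highest in animal c, and to 98.9 to 486 CPM in WT animals. The 12 non-neural markers summed to 10.8 to 33.3 CPM in Tbr1 KO animals and 23.0 to 82.0 CPM in WT animals. Jam2, the gene that gives J-RGCs their name, was at 87.4 to 130 CPM in Tbr1 KO animals, against 452 to 619 CPM in WT animals. In such pools, fewer cells of a type and less RNA per cell cannot be told apart.

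The genes lie on chromosomes 2, 5, 11 and 19 (GRCm38). Pitpnc1 spans 107207892 to 107470699 of chromosome 11, on the minus strand. Plcb4 spans 135659011 to 136014593 of chromosome 2, on the plus strand, and lies 183752 bases downstream of Plcb1, which spans 134786067 to 135475258 on the same strand. Pitpna and Pitpnm3 are also on chromosome 11, at 75588097 to 75628804 (plus strand) and 72047528 to 72135778 (minus strand). Pitpnb and Pitpnm2 are on chromosome 5, at 111330763 to 111388359 (plus strand) and 124118690 to 124249760 (minus strand). Pitpnm1 and Plcb3 are on chromosome 19, at 4099998 to 4113965 (plus strand) and 6952325 to 6976470 (minus strand), and Plcb2 is on chromosome 2, at 118707517 to 118728438 (minus strand). RefSeq promoters (GRCm38.p6) were matched for all 10 genes, at 13 start sites. The 250 bases upstream of each start were searched on both strands for the T-box half-site AGGTGTGA and for its shorter core GGTGTG, which the half-site contains, since Tbr1 is itself a T-box factor. The half-site was in 0 of the 13 windows and in 1.12% of the 32851 promoters of the same length. The core was in 1 of the 13 windows, that of Plcb1, starting 182 bases before the start site, and in 16.3% of all promoters. Plcb4 has a pair of annotated starts 105291 bases apart, and counts per gene take in transcripts from both. Its upstream start has 42 CpG dinucleotides in the window and its downstream start has 3, against a median of 6 over all promoters. In the annotation used for positions, 158 of the 250 bases of that upstream window are exon, and 0 of the downstream window. The windows of Plcb1 and of the second Pitpnm1 start also hold annotated exon, 97 and 143 bases. The windows of Pitpnc1 and of the downstream Plcb4 start are shown because these genes gave the differences described below, and that of Pitpna because its levels overlapped between genotypes. Capitals mark CpG dinucleotides, and each sequence is written 5′ to 3′ on the strand of its gene.
Pitpnc1, chr11:107470721-107470970, minus strand: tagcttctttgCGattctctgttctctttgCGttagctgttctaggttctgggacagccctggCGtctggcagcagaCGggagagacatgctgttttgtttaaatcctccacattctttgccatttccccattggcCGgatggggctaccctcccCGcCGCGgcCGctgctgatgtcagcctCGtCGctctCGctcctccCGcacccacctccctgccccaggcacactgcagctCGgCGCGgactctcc
Plcb4, downstream start, chr2:135764588-135764837, plus strand: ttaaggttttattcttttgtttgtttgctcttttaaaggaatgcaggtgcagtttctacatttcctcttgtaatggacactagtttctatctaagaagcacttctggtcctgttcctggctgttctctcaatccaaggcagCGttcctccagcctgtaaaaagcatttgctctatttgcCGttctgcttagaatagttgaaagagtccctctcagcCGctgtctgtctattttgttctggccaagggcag
Pitpna, chr11:75587829-75588078, plus strand: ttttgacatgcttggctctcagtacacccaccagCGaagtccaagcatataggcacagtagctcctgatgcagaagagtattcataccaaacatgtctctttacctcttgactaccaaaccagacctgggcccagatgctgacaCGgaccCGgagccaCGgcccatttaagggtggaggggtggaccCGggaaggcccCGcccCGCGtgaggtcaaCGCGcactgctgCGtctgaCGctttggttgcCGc
The Pitpnc1 window holds 16 CpG dinucleotides at 60.4% GC, that of Pitpna 13 at 57.6% GC, and the downstream Plcb4 window is at 42.8% GC.

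The genes were chosen with the Tbr1 KO against WT comparison already known. The differences between genotypes below are therefore descriptions, and threshold calls on these genes are no test of them. Of the 10 genes, 9 passed the filter on low counts, and Plcb2 did not. In 4 of these 9 every Tbr1 KO animal was above every WT animal (Pitpnc1, Pitpnm3, Plcb3 and Plcb4), in 0 every Tbr1 KO animal was below, and in 5 the genotypes overlapped. Over all tested genes, 2.58% had every Tbr1 KO animal above every WT animal and 2.48% had every one below. Pitpnc1 was past the threshold of 0.05 on the Benjamini-Hochberg adjusted p of edgeR's quasi-likelihood test, 1 of 12 genes in that direction, or 0.086% of those tested. None of the 9 was past it in the other direction, where 0.201% of the tested genes were. Nothing is read from these counts, because the choice of genes used the same comparison. Pitpnc1 was past the threshold in 10 of 17 alternative fits. It was not without Tbr1 KO animals a, b or d or WT animals b or c, with the photoreceptor mean as a covariate, or with a block on the library number. Plcb4 and Pitpnm3 were past it in DESeq2 alone of the 17, and Plcb3 in none of the 17. The alternative fits reuse the comparison by which the genes were chosen, so they show dependence on the settings only.

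**Figure D1:**
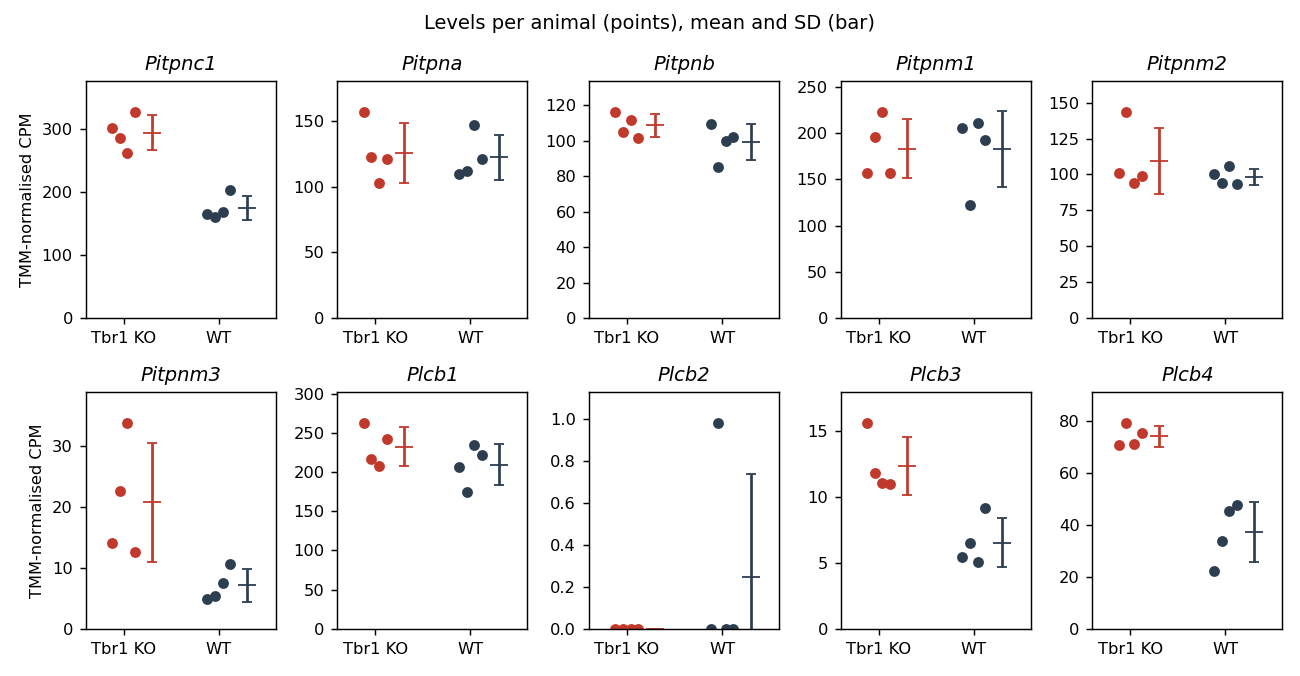
TMM-normalised CPM of each of the 10 genes in the 4 Tbr1 KO and the 4 WT animals (points), with the mean and SD beside them. The genotypes are separate for Pitpnc1, Pitpnm3, Plcb3 and Plcb4, and Plcb2 has reads in 1 WT animal only.

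Pitpnc1, a transfer protein that binds phosphatidylinositol and phosphatidic acid, was at 302, 287, 262 and 327 CPM in Tbr1 KO animals a to d, against 166, 161, 169 and 203 CPM in WT animals a to d. The lowest Tbr1 KO animal, c, was 59.6 CPM above the highest WT animal, d. The means were 294 ± 27.2 CPM in Tbr1 KO and 175 ± 19.0 CPM in WT animals (SD, n = 4 each), a log2 fold change of 0.75 ± 0.12 (SE), or 1.69-fold. The fitted value was 0.70 to 0.84 when any 1 animal was left out.

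By single library Pitpnc1 did not overlap between genotypes either. The 6 Tbr1 KO libraries ranged from 246 to 356 CPM and the 5 WT libraries from 153 to 202 CPM. The widest gap between pools of 1 animal was in Tbr1 KO animal b, with 246 CPM in library 3 and 356 CPM in library 4, a log2 difference of 0.53. That gap was smaller than the log2 difference between genotypes.

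Among the class I transfer proteins, which exchange phosphatidylinositol for phosphatidylcholine, Pitpna averaged 126 ± 22.6 CPM in Tbr1 KO and 122 ± 17.0 CPM in WT animals (SD, n = 4 each). Its log2 fold change was 0.04 ± 0.16 (SE). Pitpnb averaged 109 ± 6.57 CPM in Tbr1 KO and 99.2 ± 10.01 CPM in WT animals, and its log2 fold change was 0.13 ± 0.13. Both genes overlapped between genotypes. Pitpna contains Gm12338, a processed pseudogene on the opposite strand that was counted separately with 544 reads over all libraries.

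The Pitpnm genes are the mammalian relatives of Drosophila rdgB that have membrane-associated domains, and Pitpnm1 acts at contacts between the endoplasmic reticulum and the plasma membrane. Pitpnm1 was at 157 to 223 CPM in Tbr1 KO and 122 to 212 CPM in WT animals, and its log2 fold change was 0.00 ± 0.18 (SE). Pitpnm2 was at 94.3 to 143 CPM in Tbr1 KO and 93.5 to 106 CPM in WT animals, and its log2 fold change was 0.15 ± 0.15. Tbr1 KO animal b alone gave the 143 CPM of Pitpnm2, and the other 3 Tbr1 KO animals, at 94.3 to 101 CPM, lay within the WT range. The log2 fold changes of Pitpna, Pitpnm1 and Pitpnm2 took both signs when single animals were left out.

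Pitpnm3, which lacks the lipid transfer domain of its relatives, was the lowest of the 6 transfer proteins per kilobase of exon in both genotypes. It was at 14.2, 22.6, 33.9 and 12.6 CPM in Tbr1 KO animals a to d, against 4.92, 5.36, 7.55 and 10.7 CPM in WT animals a to d. The groups did not overlap, but Tbr1 KO animal d was 1.86 CPM above WT animal d. The log2 fold change was 1.54 ± 0.40 (SE). The highest Pitpnm3 level stood in Tbr1 KO animal c, where the photoreceptor markers summed to 1663 CPM, against 77.4 to 479 CPM in the other 3 Tbr1 KO animals. In WT, Pitpnm3 was highest in animal d, where the photoreceptor sum was also highest, at 486 CPM. Tbr1 KO animal a went the other way, with the lowest photoreceptor sum of all animals, 77.4 CPM, and Pitpnm3 at 14.2 CPM. That level was above those of Tbr1 KO animal d (12.6 CPM, photoreceptor sum 479 CPM) and WT animal d (10.7 CPM). Without Tbr1 KO animal c the log2 fold change was 1.21, and with the photoreceptor mean as a covariate it was 1.14. The part of photoreceptor RNA in this difference was not tested further. By library the genotypes overlapped, at 12.2 to 33.8 CPM in Tbr1 KO and 2.92 to 13.9 CPM in WT, and the pools of WT animal b differed by 2.25 on the log2 scale.

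Among the phospholipases C, Plcb4 gave the clearest separation by animal. It was at 70.8, 79.5, 71.2 and 75.6 CPM in Tbr1 KO animals a to d, against 22.3, 34.0, 45.5 and 47.7 CPM in WT animals a to d. The Tbr1 KO animals lay close together, and WT animal a was the lowest of all. The means were 74.3 ± 4.11 CPM in Tbr1 KO and 37.4 ± 11.7 CPM in WT animals (SD, n = 4 each), a log2 fold change of 0.99 ± 0.23 (SE), or 1.99-fold. Without WT animal a the log2 fold change was 0.81.

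The single libraries of Plcb4 overlapped between genotypes. The 6 Tbr1 KO libraries ranged from 43.6 to 101.6 CPM and the 5 WT libraries from 22.3 to 47.6 CPM. Both ends of the Tbr1 KO range came from animal b, with 101.6 CPM in library 3 and 43.6 CPM in library 4. These pools of 1 animal differed by 1.22 on the log2 scale, which is more than the difference between genotypes. In the same animal, Pitpnc1 was the higher in library 4 and Plcb4 the higher in library 3.

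**Figure D2:**
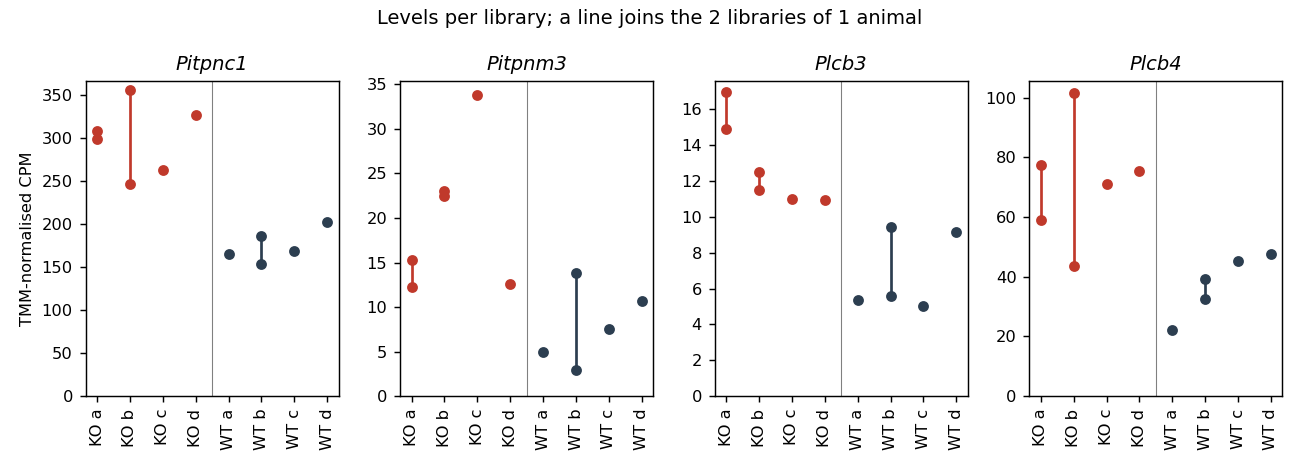
TMM-normalised CPM of the 4 genes whose animals were separate between genotypes, per library, with a line joining the libraries of 1 animal. Libraries stay separate for Pitpnc1 (246 to 356 CPM in Tbr1 KO and 153 to 202 CPM in WT) and Plcb3, and overlap for Plcb4 and Pitpnm3.

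Plcb1, the highest of the 4 phospholipases C per kilobase and one activated by Gq, averaged 233 ± 24.97 CPM in Tbr1 KO and 209 ± 26.4 CPM in WT animals (SD, n = 4 each), and the genotypes overlapped. Its log2 fold change was 0.15 ± 0.13 (SE). Plcb3 was low, at 15.6, 11.8, 11.03 and 10.9 CPM in Tbr1 KO animals a to d, against 5.40, 6.47, 5.05 and 9.17 CPM in WT animals a to d. All Tbr1 KO values of Plcb3 lay above all WT values, also by library, with a log2 fold change of 0.92 ± 0.36. Plcb3 overlaps Ppp1r14b on the opposite strand, and reads of the overlap cannot be assigned because the libraries did not mark strand. Plcb2, known from taste and blood cells, had 0 reads in all 6 Tbr1 KO libraries and 38 reads in the WT libraries, all of them in WT library 2, at 1.26 CPM. In the 10 libraries without a read, a floor of 3 reads allows 0.0866 to 0.349 CPM per library, for counting error only.

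Levels were compared between genes as CPM per kilobase of annotated exon. In WT animals the order by mean was Pitpna at 29.6 ± 4.12, Pitpnb at 29.4 ± 2.97, Pitpnc1 at 26.4 ± 2.87, Pitpnm1 at 26.0 ± 5.89 and Plcb1 at 18.8 ± 2.37 CPM per kilobase (SD, n = 4). The ranges of neighbours in this upper set overlapped, so the order of neighbours is not resolved. With this length the highest WT animal of Plcb1, at 21.2, was below the lowest of Pitpnc1 (24.4), Pitpnb (25.3) and Pitpna (26.5). Pitpnm2 followed at 7.66 ± 0.451, Plcb4 at 4.17 ± 1.30, Plcb3 at 0.938 ± 0.268, Pitpnm3 at 0.728 ± 0.271 and Plcb2 at 0.0373 ± 0.0746 CPM per kilobase in WT animals. The WT ranges were separate between Plcb1 and Pitpnm2, between Pitpnm2 and Plcb4, between Plcb4 and Plcb3, and between Pitpnm3 and Plcb2, and those of Plcb3 and Pitpnm3 overlapped.

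In Tbr1 KO animals Pitpnc1 stood first, at 44.5 ± 4.11 CPM per kilobase, with its lowest animal at 39.7. The next gene there was Pitpnb at 32.2 ± 1.95 CPM per kilobase, and Pitpna followed at 30.4 ± 5.48, with its highest animal at 38.0. Plcb4 stood at 8.28 ± 0.458 CPM per kilobase in Tbr1 KO animals, a range that overlapped that of Pitpnm2 at 8.51 ± 1.78. With the longest transcript as the length, Pitpnm1 stood at rank 1 and Pitpnc1 at rank 5 in WT animals, so the order of the upper set depends on the length used. In Tbr1 KO animals Pitpnc1 kept the highest mean with that length, at 46.5 against 39.4 for Pitpnb, but their ranges overlapped.

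**Figure D3:**
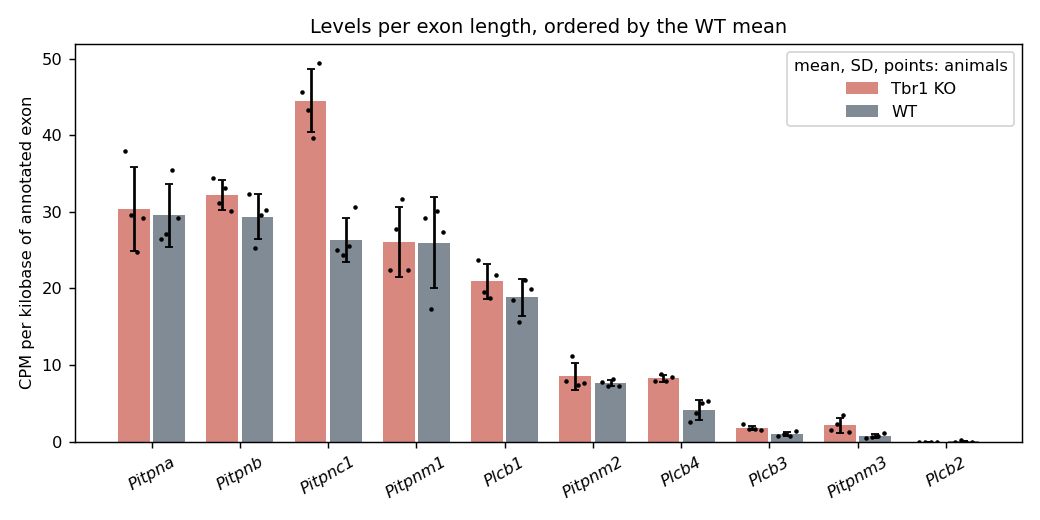
CPM per kilobase of annotated exon for the 10 genes, ordered by the WT mean, with Tbr1 KO bars left of WT bars (mean, SD, points are animals). Pitpnc1 stands at 44.5 in Tbr1 KO and 26.4 in WT animals, Plcb4 at 8.28 and 4.17 in the same order.

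Per kilobase, Pitpnc1 made up 31.0% ± 3.02 of the 6 transfer protein genes in Tbr1 KO animals and 22.1% ± 2.33 in WT animals (SD, n = 4 each), with no overlap. Plcb4 made up 26.9% ± 2.63 of the 4 phospholipase C genes in Tbr1 KO animals and 17.2% ± 3.89 in WT animals, and Plcb1 67.4% ± 2.29 in Tbr1 KO and 78.7% ± 4.44 in WT animals. Both shares were separate between genotypes, and shares of one family must sum to 100%. The family sums were 144 ± 4.62 in Tbr1 KO and 120 ± 12.3 CPM per kilobase in WT animals for the transfer proteins. They were 31.0 ± 2.38 in Tbr1 KO and 24.0 ± 3.28 CPM per kilobase in WT animals for the phospholipases C. The largest part of each difference came from Pitpnc1 (44.5 in Tbr1 KO and 26.4 in WT) and Plcb4 (8.28 and 4.17). Both sums were higher in every Tbr1 KO animal than in every WT animal. Because a single gene gave the largest part of each difference, the sums cannot show whether a whole family rose. All 9 tested genes had positive log2 fold changes, where 49.9% of all tested genes did. Those of Pitpna, Pitpnm1 and Pitpnm2 took both signs when single animals were left out. Nothing is read from that count either, because the genes were chosen with this comparison known.

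Some markers of other retinal cells moved in the same direction. The 14 Müller glia markers summed to 476 to 770 CPM in Tbr1 KO and 326 to 452 CPM in WT animals. Of the tested Müller markers, 12 of 12 had positive log2 fold changes, and 2 of them, Clu and Dkk3, were past the threshold. Over all tested genes, 49.9% had positive log2 fold changes and 0.086% were past the threshold in that direction. The non-neural markers went the other way, with 1 of 7 tested positive. Dkk3, Clu and Apoe gave most of the Müller sum, and the other 11 genes summed to 62.9 to 211 CPM in Tbr1 KO and 40.9 to 126 CPM in WT animals. Without these 3 most abundant genes, which were set apart after their values were seen, the sum overlapped between genotypes. Among amacrine markers, Pax6, which ganglion cells also express, was at 260 to 296 CPM in Tbr1 KO and 227 to 238 CPM in WT animals, without overlap. A set of 10 further amacrine markers, also set apart after their values were seen, summed to 30.3 to 60.7 CPM in Tbr1 KO and 24.0 to 63.5 CPM in WT animals, with overlap. Of these 10, 5 were tested, 4 of the 5 had positive log2 fold changes, and 0 were past the threshold. The 12 bipolar markers summed to 29.9 to 259 CPM in Tbr1 KO and 41.3 to 94.4 CPM in WT animals. Of the tested markers, 19 of 20 photoreceptor and 4 of 5 bipolar markers had positive log2 fold changes, and 0 were past the threshold. Their part in the differences of Pitpnc1, Plcb3 and Plcb4 was not tested, and with the photoreceptor mean as a covariate the log2 fold changes were 0.73, 0.93 and 0.85 in that order.

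The genes whose pattern over the 8 animals was most like that of Pitpnc1 were Mxra7, Hpcal1 and Clu. Likeness was the root-mean-square difference of log2 CPM after each gene was centred on its own mean, over 7994 other genes with at least 16 CPM. It was 0.12 for Mxra7, 0.14 for Hpcal1 and 0.14 for Clu, against a median of 0.49 over these genes. Mxra7 averaged 167 ± 10.7 CPM in Tbr1 KO and 107 ± 13.0 CPM in WT animals (SD, n = 4 each). For Plcb4 the nearest were Mgll at 0.10, Mamld1 at 0.14 and Sema6d at 0.16, against a median of 0.67. Mgll averaged 406 ± 20.6 CPM in Tbr1 KO and 219 ± 65.6 CPM in WT animals. These animals share the genotype difference and the libraries, so the likeness is a description.

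The other genes of the phosphoinositide cycle were taken from 9 lists, which were written with earlier results of these data known. A gene called in them is therefore no independent finding about the cycle. The lists hold 150 genes, of which 126 were tested. Of these, 1 rose, 0 fell and 125 did not pass in edgeR's quasi-likelihood test (Benjamini-Hochberg adjusted across the transcriptome), against 0.287% of all tested genes that passed in either direction. At an unadjusted p under 0.05 there were 9, where 7.09% of all tested genes were, and DESeq2 called 2 and limma voom 1, where they called 1.12% and 0.535% of all genes they tested. Genotypes did not overlap in 5 genes with Tbr1 KO higher and in 2 with Tbr1 KO lower, where 5.06% of all tested genes did not overlap in either direction. The median log2 fold change was -0.02 over the 126 genes and -0.00071 over all tested genes, with 60 positive and 66 negative.

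Among 14 tested Gq-coupled receptors, Tacr1, the receptor for substance P, rose. It was at 5.61, 7.00, 5.34 and 8.34 CPM in Tbr1 KO animals a to d, against 0.242, 0.104, 0.174 and 0.0628 CPM in WT animals a to d. The WT levels rest on few reads, and the groups were far apart. Tacr1 passed the filter on low counts through its Tbr1 KO animals alone, so its adjusted p is given as a description only. Its log2 fold change was 5.48 ± 0.83 (SE), with an adjusted p of 0.0133 in edgeR's quasi-likelihood test with Benjamini-Hochberg adjustment. That call was lost without Tbr1 KO animals a (0.0552), b (0.0890) or d (0.0715) or WT animal b (0.0615), and the adjusted p was 6.61e-11 to 0.0890 over the 16 alternatives that kept the gene. The filter of 10 CPM in 4 animals removed it. Ednra, the endothelin receptor type A, averaged 20.2 ± 5.10 CPM in Tbr1 KO and 4.91 ± 2.46 CPM in WT animals (SD, n = 4 each) and did not pass, at an edgeR adjusted p of 0.0681. Its adjusted p was 0.000414 to 0.402 over the 17 alternatives. It passed in 3 of them, in DESeq2 (0.000414), with the filter of 10 CPM in 4 animals (0.0220) and without WT animal a (0.0146). Adra1d, an alpha-1 adrenergic receptor, averaged 0.0566 ± 0.0655 CPM in Tbr1 KO and 1.59 ± 0.519 CPM in WT animals, without overlap. It passed the filter on low counts through its WT animals alone. Its log2 fold change was -4.72 ± 1.52 (SE), with an edgeR adjusted p of 0.444 that was 0.0873 to 0.694 over the 16 alternatives that kept the gene.

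Nothing passed in the other 8 lists, by edgeR, DESeq2 or limma voom. Both tested Gq/11 alpha subunits, which couple receptors to the beta phospholipases, overlapped between genotypes, Gnaq at a log2 fold change of -0.07 ± 0.18 (SE) and Gna11 at -0.01 ± 0.14, with 0 at an unadjusted p under 0.05. The 13 other phospholipases C (median -0.07) also had 0 at an unadjusted p under 0.05. Their lowest p-values belonged to Plce1, at 5.17 ± 2.06 CPM in Tbr1 KO and 1.44 ± 1.42 CPM in WT animals (SD, n = 4 each), Plcd3 and Plcl2, with log2 fold changes of 1.84, 1.07 and -0.64. Without WT animal b, at 3.39 CPM the highest of the WT animals, that of Plce1 was 2.70, and without WT animal d that of Plcd3 was 1.67. The 11 diacylglycerol kinases, CDP-diacylglycerol synthases and the phosphatidylinositol synthase (median -0.02) had 1. Among these lipid synthesis genes, Cds1 was at 10.3 ± 2.52 CPM in Tbr1 KO and 4.31 ± 2.64 CPM in WT animals (SD, n = 4 each), Dgke at 35.5 ± 1.43 CPM in Tbr1 KO and 21.1 ± 10.9 CPM in WT animals, and Cds2 at 168 ± 21.0 CPM in Tbr1 KO and 134 ± 27.5 CPM in WT animals.

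The 19 phosphoinositide kinases (median -0.10) had 2 genes at an unadjusted p under 0.05, Pip4k2a and Pip5k1b, with log2 fold changes of -1.29 ± 0.39 and -1.25 ± 0.55 (SE). Both make phosphatidylinositol bisphosphate, and the groups overlapped for Pip5k1b. Pik3r3, a regulatory subunit of phosphatidylinositol 3-kinase, had a log2 fold change of -0.48 ± 0.23. The 16 phosphoinositide phosphatases (median 0.10) had 1, the 4-phosphatase Inpp4b, at 65.6 ± 6.78 CPM in Tbr1 KO and 47.2 ± 11.9 CPM in WT animals (SD, n = 4 each). Tmem55a and Synj2 followed there, with log2 fold changes of 0.54 ± 0.26 and 0.75 ± 0.42. The 11 genes of inositol metabolism (median -0.23) had 1, Inpp1, which removes a phosphate from inositol phosphates, at 78.1 ± 14.2 CPM in Tbr1 KO and 105 ± 13.8 CPM in WT animals. Isyna1, which makes inositol phosphate from glucose phosphate, had a log2 fold change of -0.37 ± 0.20, and the inositol phosphate kinase Ippk one of 0.65 ± 0.44. The 18 tested lipid transfer genes of membrane contact sites (median -0.09) had 0. The lowest p-values there belonged to Gramd1c, C2cd2l and C2cd2, with log2 fold changes of -1.81 ± 0.93, 0.35 ± 0.23 and -0.36 ± 0.24.

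The 22 effectors of inositol trisphosphate and diacylglycerol (median 0.03) had 1 gene at an unadjusted p under 0.05. It was Trpc6, a cation channel opened by diacylglycerol, at 12.01 ± 5.31 CPM in Tbr1 KO and 22.1 ± 10.02 CPM in WT animals (SD, n = 4 each), with a log2 fold change of -0.88 ± 0.39 (SE) and an edgeR adjusted p of 0.686. Prkcd, a protein kinase C activated by diacylglycerol, had a log2 fold change of -0.35 ± 0.17, and Itpr3, an inositol trisphosphate receptor, was at 1.495 ± 1.05 CPM in Tbr1 KO and 0.107 ± 0.181 CPM in WT animals. Its log2 fold change was 3.76 ± 1.83, and 6.09 without WT animal d. Melanopsin, Opn4, was at 0.958, 7.75, 0.919 and 0.972 CPM in Tbr1 KO animals a to d, against 3.63, 5.75, 4.18 and 4.18 CPM in WT animals a to d. Tbr1 KO animal b was the highest of all, and the other 3 Tbr1 KO animals were below every WT animal. The log2 fold change of Opn4 was -0.74 ± 0.84 and did not pass (edgeR adjusted p of 0.949), and it was -2.22 without Tbr1 KO animal b (edgeR adjusted p of 0.721). Trpc7, a channel of the same cascade in melanopsin cells, did not pass the filter on low counts. The main inositol trisphosphate receptor of neurons, Itpr1, was at 9.92 ± 1.40 CPM in Tbr1 KO and 13.3 ± 4.62 CPM in WT animals.

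**Figure D4:**
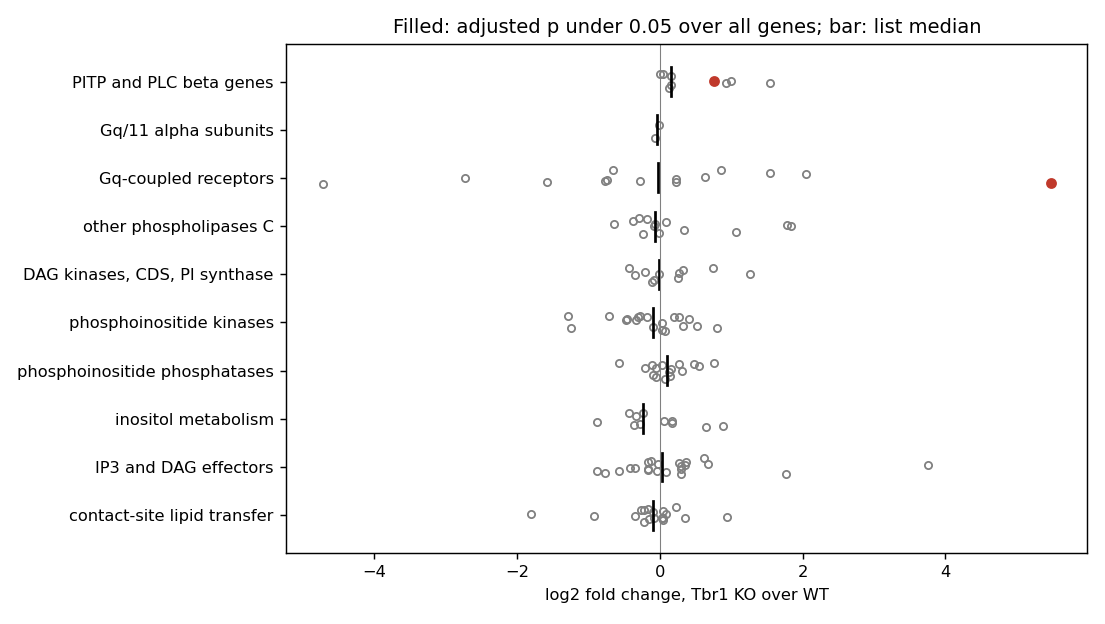
Log2 fold change of Tbr1 KO over WT for the tested genes of each list (points), with the list median as a bar and genes past the threshold filled. Tacr1 at 5.48 is the filled point among the Gq-coupled receptors, and the medians of the 9 lists lie between -0.23 and 0.10. The top row holds the 9 tested genes of the transfer protein and beta phospholipase C families, with Pitpnc1 filled. These genes were chosen with this comparison known.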

How the data were processed

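Each deposited file lists whole-number counts of reads for 1 library by gene symbol, not normalized. The labels' protocols name Smart-seq2 and a Nextera XT kit. The tools named in the submitters' processing notes are HTSeq 0.6.1, TopHat2 2.0.10 and Trimmomatic 0.32, and the build is mm10 (GRCm38). Neither the annotation nor the strand setting is given in the sources used here, and no molecular identifiers are described, so PCR copies are counted. Lines that name no gene (36.1% to 39.9% of the reads listed) were left out.

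Counts were summed per animal, since the series text ties libraries to animals, filtered with filterByExpr and normalised by TMM. Genotypes were compared with edgeR 4.0.16 (R 4.3.3), using its quasi-likelihood test with the robust option. The Benjamini-Hochberg threshold was 0.05 over all tested genes. Log2 CPM used a prior count of 0.5, and the SE is the log2 fold change divided by the square root of F. DESeq2 1.42.0 and limma 3.58.1 were alternatives, beside other scalings, filters, units of replication, a covariate and leaving out each animal. Exon lengths and positions came from GENCODE M21, and the plots from matplotlib 3.10.9.

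The genes and lists were chosen with earlier results of these data known. All 10 genes are named, with up to 3 genes per list (those past the threshold, then by unadjusted p), further list members outside that rule (Opn4, Trpc7 and Itpr1), and 3 nearest genes each for Pitpnc1 and Plcb4, clone names skipped. Reference proteins were not used here. The result of 1 amacrine marker, and the amacrine sum that holds it, are not reported here.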

Additional observations from a re-analysis of the deposited data

Results flagged for a closer look

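Values by animal were examined for 47 genes in both genotypes, the 10 transfer protein and beta phospholipase C genes, 28 genes of the phosphoinositide cycle named in the text, the 6 genes of likest pattern, and Tbr1, Jam2 and Pax6. In 6 of these 94 groups of 4 animals, 1 animal stood far from the other 3 by Dixon's criterion, which chance meets in about 1 group of 20. Pitpnm2 was at 143 CPM in Tbr1 KO animal b, against 94.3 to 101 CPM in the other Tbr1 KO animals. Plcb2 was at 0.984 CPM in WT animal b and at 0 in the other WT animals. Plcd3, a delta-type phospholipase C, was at 5.37 CPM in WT animal d, against 1.71 to 1.83 CPM in the other WT animals. Itpr3 was at 0.377 CPM in WT animal d and at 0 to 0.0518 CPM in the other WT animals. Opn4 was at 7.75 CPM in Tbr1 KO animal b, against 0.919 to 0.972 CPM in the other Tbr1 KO animals. C2cd2 was at 31.1 CPM in WT animal a, against 22.1 to 23.4 CPM in the other WT animals.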

How the results depend on the processing

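With animals as replicates, edgeR called 40 genes over the transcriptome. The count was 84 with each library as a replicate, 156 in DESeq2, 74 in limma voom and 17 to 44 without any 1 animal (22 without Tbr1 KO animal a, 17 without b, 25 without d and 18 without WT animal b). Of the phosphoinositide cycle lists, 1 gene was called, 2 in DESeq2 and 0 to 2 without any 1 animal. Where 1 gene was called it was Tacr1, except with the filter of 10 CPM in 4 animals, where it was Ednra, and DESeq2 and the fit without WT animal a called both. Log2 fold changes of Pitpnc1, Pitpnb, Pitpnm3, Plcb1, Plcb3 and Plcb4 stayed positive under all 17 alternatives. Gnaq turned to 0.079 with the photoreceptor covariate and ranged from -0.14 to 0.041 without 1 animal. Gna11 turned to 0.077 with each library as a replicate, 0.13 with the replicate block, 0.00014 with upper quartile scaling and 0.018 in limma voom, and ranged from -0.081 to 0.059 without 1 animal. The cause was not tested. With the library number as a replicate block, 43 genes were called. Libraries that share a number do not come from 1 animal. Their deviations correlated at -0.03 to 0.14, and 3 of 5 correlated best with their own number. Pools known to come from 1 animal correlated at -0.25, -0.11 and -0.20. Deviations were taken from the genotype mean, which by itself pulls correlations within a genotype below 0. These values are therefore no yardstick for pairs across genotypes. Without a yardstick, the correlations cannot decide whether the numbers pair the samples. With the longest transcript as the length, 4 neighbours in the order of levels were again separate. The precision of Plcb2, Plcb3 and Pitpnm3 is limited by their low counts.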
